A study of Mus musculus with 12 samples.

Results

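The genes described here are 34 genes of epithelial adhesion in mouse colonic organoids, chosen by name as a list of cell-cell and cell-matrix junction genes. They comprise the E-cadherin gene Cdh1 with other cadherin and adherens junction genes, 5 desmosome genes and 7 claudins. Other tight junction membrane and scaffold genes are included, as are integrin and laminin genes that tie epithelium to its basement membrane. All array probes whose accession mapped to one of the 34 symbols were collected, which gave 46 probes. Of the 34 genes, 33 could be tested among 24245 genes. The exception was the claudin gene Cldn1, whose single probe was not well above background on any of the 12 arrays.

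Colonic crypts of C57BL/6 mice were embedded in Matrigel and grown as organoids, a three-dimensional culture enriched in stem cells. The groups were Vdr knockout (labelled VDR KO) with 1,25(OH)2D3, Vdr knockout with EtOH, wild type with 1,25(OH)2D3 and wild type with EtOH, each with 3 organoid cultures from 3 mice. 1,25(OH)2D3, or calcitriol, is the active form of vitamin D and was given at 100 nM, repeated every 48 h, while EtOH is its vehicle. The sample descriptions give 62 h of treatment and the series text gives 72 h. Per the labels, each genotype had a male of 2 months (replicate 1), a female of 3 months (replicate 2) and a female of 2 months (replicate 3), and the cultures of one mouse received both treatments. The labels do not say which exons the knockout allele lacks, so whether the Vdr probe lies in the deleted part is unknown, and they name no other allele. Each sample is a bulk RNA measurement, so fewer cells of a type and less RNA per cell cannot be told apart.

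Adherens junctions join neighbouring cells through E-cadherin, whose cytoplasmic tail binds catenins that link it to actin, while desmosomes join cells to each other through desmosomal cadherins anchored to intermediate filaments. Tight junctions seal the space between cells: claudins set which ions pass, occludin and the MARVEL proteins reinforce contacts, and ZO scaffolds hold the assembly to the cytoskeleton. Integrins and laminins attach the basal side of the sheet to the basement membrane. Calcitriol acts through the vitamin D receptor, and in human colon carcinoma cells it is known to raise E-cadherin. The comparison asked here is whether Cdh1 and the junction genes were induced in normal mouse organoids.

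Levels are given on a log2 scale, as processed signal relative to the 75th percentile of the same array, so a level of 1 means a signal of 2 times that percentile and values of different genes cannot be ranked against each other. Differences are log2 differences of group means, and a gene was called when its limma p, adjusted by the Benjamini-Hochberg method over all 24245 genes, was under 0.05. Per array that percentile lay between 580.6 and 790.5 units of signal, and no spot was saturated. One array differed from the rest: in vehicle-treated wild-type mouse 2, 72.8% of spots exceeded background clearly, against 55.0% to 66.4% elsewhere. In the fit of the group means no member was called in any comparison, with or without that array, so leaving it out there cannot show whether a call depends on it. All 8 colon epithelium markers were above background on all 12 arrays, as were 0 of 6 fibroblast, 0 of 3 muscle, 2 of 4 endothelial, 4 of 6 immune and 2 of 4 neural and glial markers, with Pdgfra, Lum, Actg2, Tek and S100b above background on none. The arrays were spread over 3 slides, with 2, 3 and 7 on each: the 3 wild-type calcitriol arrays were all on the largest, 2 wild-type vehicle arrays were on another with 1 knockout calcitriol array, and 2 knockout vehicle arrays were alone on the smallest. Slide and group therefore overlap, and values fitted with slide as a block are given where they change a statement. On the largest slide each vehicle group has 1 array, that of mouse 3, and mouse 3 is the only wild-type mouse with both of its arrays on one slide. No knockout mouse has both arrays on one slide, so each difference within a knockout mouse is also a difference between slides.

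The treatment itself was visible in the arrays. In wild-type organoids 4 of 5 vitamin D reference genes rose with calcitriol, among them the calcium-binding protein gene S100g by 7.50 ± 0.17 (log2, SE) and the calcium pump gene Atp2b1 by 1.63 ± 0.14. In knockout organoids none of the 5 passed the test, with S100g at 0.13 and Atp2b1 at -0.12. The receptor gene Vdr differed by -1.11 with calcitriol (knockout minus wild type, log2, limma adjusted p = 0.259) and by -1.61 with vehicle (adjusted p = 0.324), and its groups did not overlap in either treatment. With the replicate number as a block these differences passed, at adjusted p of 0.0484 with calcitriol and 0.0286 with vehicle.

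No rise with calcitriol was detected for Cdh1, the gene of E-cadherin, the homophilic adhesion molecule of adherens junctions. In knockout organoids Cdh1 stood at 4.91, 5.10 and 5.08 with calcitriol, against 4.88, 5.26 and 5.17 with vehicle. In wild-type organoids it stood at 4.81, 5.10 and 4.93 with calcitriol, against 4.93, 5.11 and 4.98 with vehicle. The treated and untreated arrays overlapped in both genotypes, and in every wild-type mouse the calcitriol array was at or just below its own vehicle array. The calcitriol effect was -0.07 ± 0.13 in knockout and -0.06 ± 0.13 in wild-type organoids (log2, SE), with limma adjusted p of 1.00 in each. The 95% interval in wild type ran from -0.33 to 0.22, a fold between 0.793 and 1.16, and with the mouse as a block it narrowed to folds between 0.857 and 1.08. The wild-type effect minus the knockout effect was 0.01 ± 0.18. Knockout minus wild type came to 0.09 in calcitriol and 0.10 in vehicle, and neither passed.

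**Figure D1:**
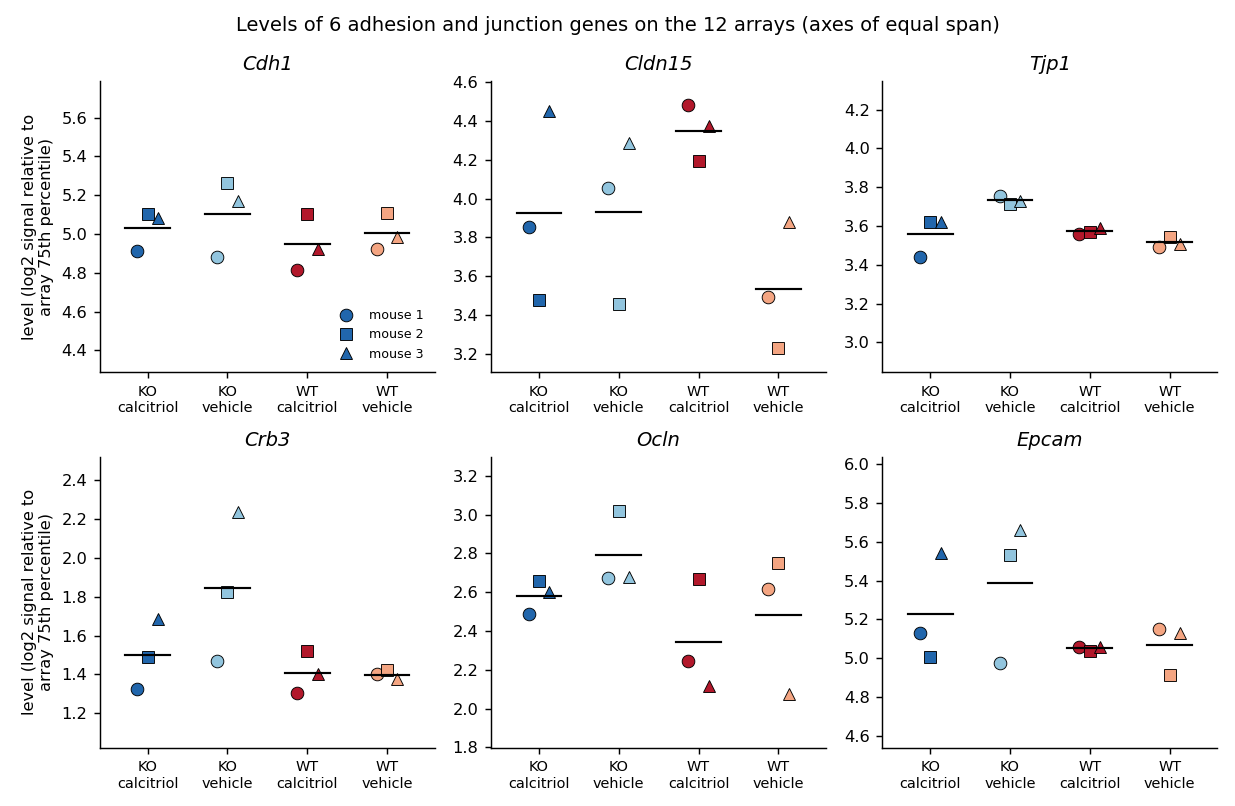
Levels of Cdh1, Cldn15, Tjp1, Crb3, Ocln and Epcam (log2 processed signal relative to the 75th percentile of the array; axes of equal span) in the 4 groups, 1 point per array, with the shape giving the mouse number and the bar the mean of 3. Cdh1 overlaps in all groups, whereas the 3 wild-type calcitriol arrays of Cldn15 (4.19 to 4.48) lie above the 3 wild-type vehicle arrays (3.23 to 3.88).

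Over the whole set, no member passed the test for calcitriol against vehicle in wild-type organoids. By limma 39 of 24245 genes, or 0.161%, were called in the fit of the group means. There 1 member, or 3.03%, had an unadjusted p under 0.05, against 4.52% of all genes. With the mouse as a block 1 of 33 members was called, against 0.965% of all genes. Unadjusted limma p was then under 0.05 for 5 members, or 15.2%, against 9.99% of all genes. The members' differences ran from -0.38 for Jup to 0.82 for Cldn15, with a median of -0.03, equal to the median of -0.03 over all genes. Of the 33, 10 lay above 0 and 23 below, while 44.8% of all genes lay above 0. Fitted with slide as a block, 18 of 33 lay above 0 and the median was 0.04. In that fit 40.8% of all genes lay above 0, and the median over all genes was -0.04. In the pair of wild-type mouse 3 alone, 15 of 33 lay above 0, beside 46.9% of all genes. In all 3 wild-type mice 12 members, Cdh1 among them, were lower with calcitriol, or 36.4% against 18.4% of all genes. Another 6 were higher in all 3 mice, or 18.2% against 15.1% of all genes. Only in mouse 3 do both arrays share a slide. The difference of group means was under 0.25 on the log2 scale in either direction for 28 of 33 members. For 30 members its 95% interval in that fit stayed within a fold of 2, the exceptions being Cldn15, Cldn4 and Cldn8. With the mouse as a block 32 of 33 intervals did, the exception being Cldn15.

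The single member called was Cldn15, which encodes a claudin that forms paracellular channels for sodium in the intestine. In wild-type organoids Cldn15 stood at 4.48, 4.19 and 4.37 with calcitriol, against 3.49, 3.23 and 3.88 with vehicle. In knockout organoids it stood at 3.85, 3.48 and 4.45 with calcitriol, against 4.05, 3.45 and 4.28 with vehicle. Every wild-type calcitriol array was above every wild-type vehicle array, and the knockout arrays of both treatments spanned the same range. Only 2 members, Cldn15 and the ZO-1 gene Tjp1, had higher groups without overlap in wild type, or 6.06% of the members against 4.67% of all genes, and 0 members had lower groups without overlap, against 4.22% of all genes.

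Cldn15 averaged 4.35 ± 0.15 with calcitriol and 3.53 ± 0.33 with vehicle in wild type (SD, n = 3 each), a difference of 0.82 ± 0.27 (SE), or 1.76-fold (95% interval 1.18 to 2.63). It did not pass in the fit of the group means (limma adjusted p = 0.859) and rose past the threshold with the mouse as a block, where the same difference had an SE of 0.12 and an adjusted p of 0.0232. The differences within the mice were 0.99, 0.96 and 0.50, the last in mouse 3, whose arrays share a slide. With slide as a block the difference was 0.91 (adjusted p = 1.00), and on the largest slide the 3 calcitriol arrays averaged 0.47 above the single vehicle array. The blocked call was lost without wild-type mouse 1 (adjusted p = 0.186), wild-type mouse 2 (0.234) or knockout mouse 2 (0.0755), and held without wild-type mouse 3 (0.0218), knockout mouse 1 (0.0294) or knockout mouse 3 (0.0121).

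The calcitriol effect on Cldn15 was -0.00 in knockout and 0.82 in wild-type organoids, and their difference, wild type minus knockout, was 0.82 ± 0.38 (SE). That difference did not pass in either fit, with adjusted p of 1.00 for the group means and 0.198 with the mouse as a block. The summed signal of 6 absorptive colonocyte markers, in multiples of the array's 75th percentile, was 137 to 154 in knockout calcitriol arrays and 130 to 204 in knockout vehicle arrays, and 167 to 254 in wild-type calcitriol arrays and 154 to 198 in wild-type vehicle arrays. That sum is largely the signal of Car1, whose mean log2 level was 7.08, beside 3.84 for Guca2a, the next highest of the 6. Marker by marker, 3 of the 6 had a higher group mean with calcitriol in wild type, and Slc26a3, Aqp8 and Ceacam20 had a lower one. The 6 goblet cell markers summed to 112 to 164 in knockout calcitriol arrays and 98.5 to 166 in knockout vehicle arrays, and to 115 to 213 in wild-type calcitriol arrays and 82.7 to 174 in wild-type vehicle arrays, and in wild type all 6 had a higher mean with calcitriol. The part of either cell type in the Cldn15 result was not tested.

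The promoter windows of the members are shown for 2 claudins because Cldn15 is the gene that was called and Cldn4, a barrier claudin on the same chromosome, is a claudin that was not called and whose window holds the same half-site. Windows came from a RefSeq table on GRCm38.p6, and 270 bases are printed, from 250 bases before the annotated start, 5′ to 3′ on the gene's strand. Capitals mark TGACCT, the reverse complement of the nuclear receptor half-site AGGTCA.
Cldn15, chr5:136967619-136967888, plus strand: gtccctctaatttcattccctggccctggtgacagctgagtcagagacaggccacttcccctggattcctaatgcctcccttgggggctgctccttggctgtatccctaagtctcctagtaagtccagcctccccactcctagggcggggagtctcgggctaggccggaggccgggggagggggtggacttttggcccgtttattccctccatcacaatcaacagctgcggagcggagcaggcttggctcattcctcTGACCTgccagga
Cldn4, chr5:134946915-134947184, minus strand: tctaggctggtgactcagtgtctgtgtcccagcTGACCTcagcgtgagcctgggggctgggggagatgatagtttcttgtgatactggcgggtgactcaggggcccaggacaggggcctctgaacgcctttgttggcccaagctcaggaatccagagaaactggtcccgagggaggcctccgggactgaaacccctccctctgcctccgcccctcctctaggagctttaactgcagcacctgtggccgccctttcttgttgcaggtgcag
In Cldn15 the half-site starts 7 bases after the start, and in Cldn4 it lies 217 bases before it.

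Of the 34 members, 21 matched the promoter table, with 29 windows, and Cdh1 was not among them. The half-site AGGTCA, searched on both strands, was present in 7 of the 29 windows (24.1%), against 16.3% of all 32851 windows. Its variant AGTTCA was present in 13.8% of the members' windows, against 14.0% of all windows. Another, GGTTCA, was in 13.8% of them against 10.4%, and a last one, GGGTCA, in 20.7% against 13.7%. A direct repeat of any 2 of these half-sites with 3 bases between, the arrangement the vitamin D receptor is known to bind, was in none of the members' windows and in 13 of all 32851. The E-box CAGGTG, a sequence that Snail-family repressors recognise, was in 16 of 29 windows (55.2%), against 20.2% of all. These matches describe the letters in the window and do not show binding.

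Among the cadherin and adherens junction genes, 5 of 6 had a wild-type calcitriol difference below 0 and none was called. With slide as a block 3 lay above 0 and 3 below, with a median of 0.02. Ctnna1, which encodes the alpha-catenin that links the cadherin complex to actin, stood at 6.41, 6.65 and 6.62 with calcitriol, against 6.75, 6.81 and 6.62 with vehicle. The groups met at mouse 3, and the difference was -0.17 ± 0.10 (SE, limma adjusted p = 1.00). Jup, whose product plakoglobin serves both adherens junctions and desmosomes, had the lowest difference of the set at -0.38 ± 0.26, and it was -0.24 with slide as a block. Cdh17, encoding the intestinal LI-cadherin and grouped here as a cadherin, was the only 1 of these 6 above 0, at 0.25 ± 0.15. It was higher in all 3 mice, by 0.16, 0.40 and 0.19. The p120-catenin gene Ctnnd1, whose product stabilises cadherins at the membrane, lay at 5.36 to 5.86 over the 12 arrays with a difference of -0.08. Vcl, which encodes the actin-binding protein vinculin, differed by -0.03.

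All 5 desmosome genes lay slightly below 0 in wild-type organoids, by -0.22 for the plakophilin gene Pkp3 to -0.02 for the desmosomal cadherin gene Dsc2, and none was called. Dsp, encoding desmoplakin, the anchor of the desmosome to keratin, differed by -0.22 ± 0.14 in wild type and lay at 4.83 to 5.34 over the 12 arrays. The desmoglein gene Dsg2 differed by -0.06 and Pkp2 by -0.04. With slide as a block 2 of these 5 lay above 0, as did 2 of 5 in the pair of wild-type mouse 3, while 0 of 5 did against the single vehicle array of the largest slide.

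Tight junction genes other than Cldn15 stayed within 0.35 of 0 in wild-type organoids. F11r, which encodes the adhesion molecule JAM-A, stood at 5.81, 5.95 and 5.71 with calcitriol, against 5.71, 5.55 and 5.60 with vehicle. The lowest calcitriol array of F11r and its highest vehicle array were nearly level, and the difference was 0.20 ± 0.11 (SE, limma adjusted p = 1.00). Of the ZO scaffolds, Tjp1 differed by 0.06 and Tjp3 by -0.03. The polarity genes Pard3 and Crb3 differed by 0.15 and 0.01, and Cgn, encoding the junction adaptor cingulin, by 0.05.

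The remaining tight junction members had small or poorly determined differences. Ocln, the occludin gene, differed by -0.14, its relatives at contacts between 3 cells and along the junction, Marveld2 and Marveld3, by -0.15 and 0.11, and the adhesion gene Epcam by -0.02. The claudins Cldn3 and Cldn7 differed by 0.06 and 0.11, with levels of 5.89 to 6.46 and 6.81 to 7.26 over the 12 arrays. Cldn23 differed by -0.00. For the barrier claudins Cldn4 and Cldn8 the differences of -0.20 and -0.35 had 95% intervals of -1.11 to 0.72 and -1.77 to 1.08, so both intervals reach past a 2-fold change. With the mouse as a block the intervals were -0.37 to -0.03 for Cldn4 and -0.65 to -0.04 for Cldn8, and the adjusted p were 0.430 and 0.437. Both genes were lower with calcitriol in each of the 3 wild-type mice, with differences of -0.26, -0.11 and -0.22 for Cldn4 and of -0.62, -0.31 and -0.12 for Cldn8.

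All 6 basement membrane adhesion genes lay below 0 in wild-type organoids, with a median of -0.12, and none was called. Lama3, encoding a chain of laminin-332, stood at 1.25, 1.36 and 0.99 with calcitriol, against 1.76, 1.64 and 1.11 with vehicle. Its groups overlapped, and the difference was -0.30 ± 0.18 (SE, limma adjusted p = 1.00). A second Lama3 probe gave 0.39, and the 2 probes correlated at -0.64 over the 12 arrays, so the gene's direction depends on the probe. Its partner Lamb3 differed by -0.02. The integrin genes differed by -0.27 for Itga2, -0.14 for Itgb1, -0.11 for Itga6 and -0.03 for Itgb4, the last 2 encoding the hemidesmosome integrin. With slide as a block 1 of these 6 lay above 0, and in the pair of wild-type mouse 3 none did. Against the single vehicle array of the largest slide, 3 of 6 lay above 0, with a median of -0.02.

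**Figure D2:**
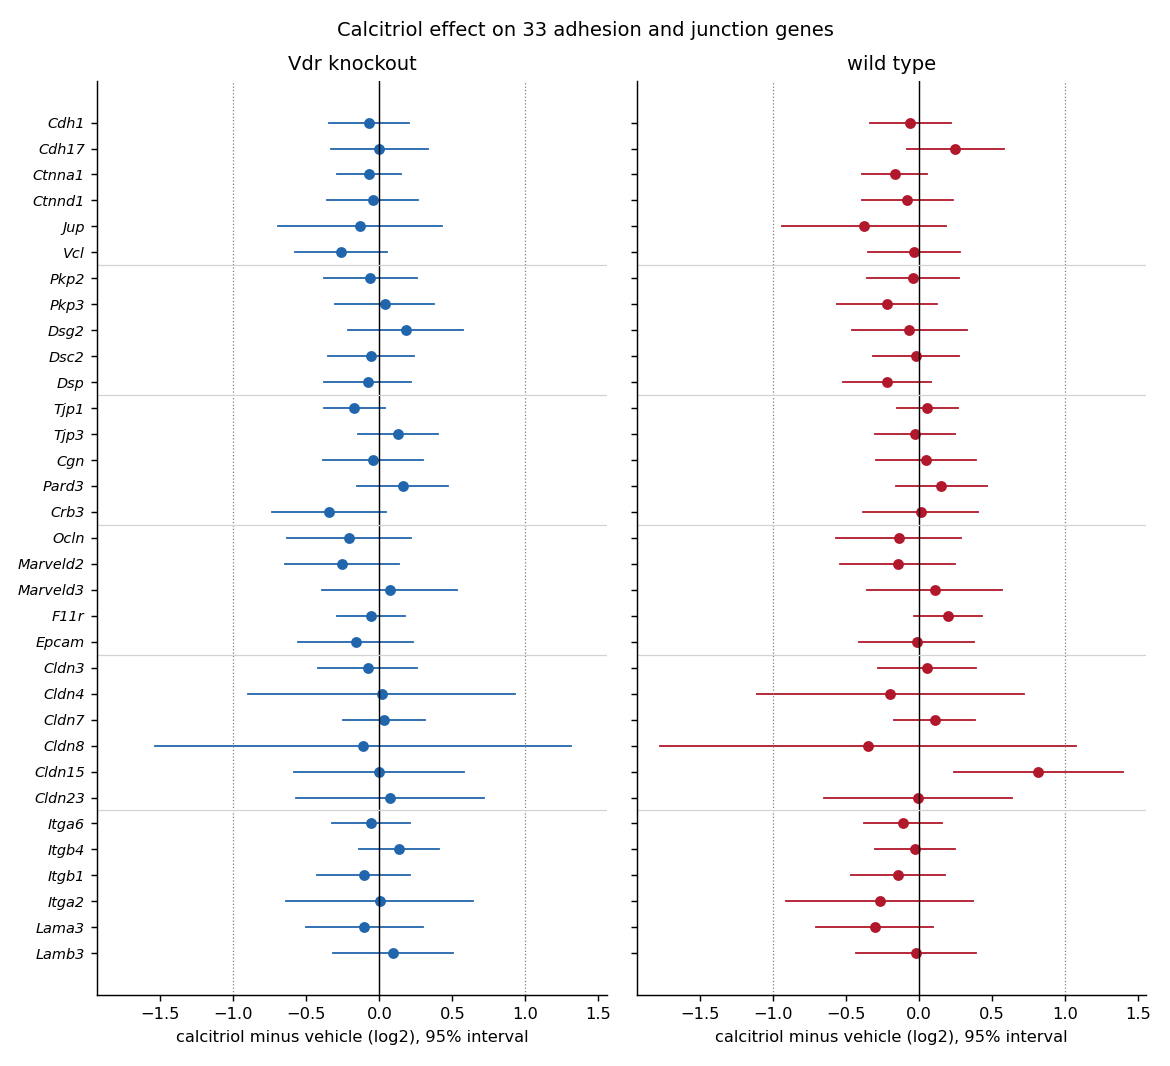
Calcitriol minus vehicle (log2 difference, x axis) for the 33 tested members in Vdr knockout (left) and wild-type organoids (right), ordered by role with grey lines between roles. Points are differences of group means and bars are 95% intervals from the fit of the group means, and dotted lines mark a fold of 2; Cldn15 in wild type at 0.82 is the one point away from the others, and Cldn4 and Cldn8 have the widest bars.

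Probes of the same gene did not always move together. Of 12 further probes of tested members, 6 had the opposite sign in wild type, from 5 genes: Crb3, Itgb1, Lama3, Ocln and Pard3. The second Cldn4 probe followed the first closely over the arrays (r = 0.99), as did that of Dsg2 (r = 0.87), whereas those of Dsp (r = -0.02) and Marveld3 (r = -0.24) did not. Cldn15 and Cdh1 were each measured by 1 probe.

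In knockout organoids no member was called for calcitriol against vehicle in either fit, and neither was any of the 24245 genes (0% with the group means and 0% with the mouse as a block). Without adjustment 0 members had a limma p under 0.05, against 5.75% of all genes. With the block 3 members did, or 9.09% against 8.02% of all genes. Of 33 members 11 lay above 0 and 22 below, with a median of -0.06, beside 0.04 over all genes, of which 59.0% lay above 0. The differences ran from -0.34 for Crb3 to 0.18 for Dsg2, and 30 of 33 were under 0.25 in either direction. With slide as a block they ran from -0.79 to 0.50, with 10 of 33 above 0 and a median of -0.09. In that fit 50.7% of all genes lay above 0, and the median over all genes was 0.01. In all 3 knockout mice 8 members were lower with calcitriol, or 24.2% against 12.8% of all genes. Another 3 were higher in all 3 mice, or 9.09% against 15.9% of all genes. The 2 arrays of each knockout mouse lie on different slides. No member was higher without overlap, against 6.05% of all genes, and 2 members, Ocln and Tjp1, were lower without overlap, or 6.06% of the members against 1.42% of all genes. A second Ocln probe had overlapping groups, at -0.77, -0.20 and -0.42 with calcitriol, against -0.82, 0.03 and -0.24 with vehicle.

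Crb3 encodes the apical polarity protein Crumbs3. In knockout organoids Crb3 stood at 1.32, 1.49 and 1.69 with calcitriol, against 1.47, 1.82 and 2.24 with vehicle. On this probe it was lower with calcitriol in every mouse, yet the groups overlapped because the mice differed. The difference was -0.34 ± 0.18 (SE, limma adjusted p = 0.845, and 0.576 with the mouse as a block). A second Crb3 probe gave -0.20 and was higher with calcitriol in knockout mouse 1, at 0.72 against 0.61. Vcl stood at 1.97, 1.94 and 2.36 with calcitriol, against 2.28, 2.40 and 2.38 with vehicle, a difference of -0.26 ± 0.15 (adjusted p = 0.864). Its calcitriol array of mouse 3 reached the vehicle arrays while the other calcitriol arrays lay lower.

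The knockout members above 0 with the smallest p were Pard3, which encodes a core polarity scaffold, and Itgb4. Pard3 stood at 1.70, 1.47 and 1.78 with calcitriol, against 1.66, 1.32 and 1.50 with vehicle. Itgb4 stood at 5.13, 5.29 and 5.15 with calcitriol, against 5.05, 5.26 and 4.85 with vehicle. Both were slightly higher in each mouse with overlapping groups, by 0.16 ± 0.14 for Pard3 and 0.13 ± 0.13 for Itgb4, with limma adjusted p of 1.00 in each. Other Pard3 probes gave -0.01, -0.02 and 0.27 in knockout, and correlated with the probe used at -0.47, -0.52 and 0.67 over the arrays.

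No member passed the test of the difference between the calcitriol effects, wild type minus knockout, for which 0.0289% of genes were called with the group means and 0.239% with the mouse as a block. By unadjusted limma p under 0.05 the counts were 1 and 2 of 33 members (3.03% and 6.06%), against 3.39% and 8.03% of all genes. The members' median was -0.00, beside -0.07 over all genes, with 16 above 0 and 17 below. With slide as a block 23 of 33 members lay above 0, beside 43.4% of all genes, and the members' median was 0.11. Behind Cldn15, the differences with the smallest p were 0.26 ± 0.15 for F11r above 0, and -0.25 ± 0.22 for Pkp3 and -0.25 ± 0.26 for Dsg2 below 0 (SE, limma adjusted p = 1.00 for each). F11r stood at 5.70, 5.74 and 5.68 with calcitriol, against 5.60, 5.86 and 5.85 with vehicle, in knockout organoids, where its groups overlapped.

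The 2 desmosome genes in that comparison had overlapping groups throughout. Pkp3 stood at 3.78, 4.03 and 4.01 with calcitriol and 3.89, 4.13 and 3.70 with vehicle in knockout organoids, and at 3.66, 4.04 and 3.94 with calcitriol and 3.95, 4.34 and 4.01 with vehicle in wild-type organoids. Dsg2 stood at 2.58, 2.47 and 2.38 with calcitriol and 2.59, 2.26 and 2.04 with vehicle in knockout organoids, and at 2.17, 2.66 and 2.14 with calcitriol and 2.18, 2.48 and 2.51 with vehicle in wild-type organoids. For both genes the calcitriol difference lay below 0 in wild type and above 0 in knockout.

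Knockout organoids had slightly higher levels than wild-type organoids for most members in vehicle, and none was called. There 26 of 33 members lay above 0 with a median of 0.10, beside a median of -0.06 over all genes and 40.9% of all genes above 0. Of 24245 genes 1 was called with the group means and 1 with the replicate block (0.00412% in each fit), and neither was a member. Unadjusted limma p was under 0.05 for 2 members, or 6.06%, against 8.75% of all genes. With the block it was under 0.05 for 6 members, or 18.2%, against 14.4% of all genes. After quantile normalization 21 of 33 members lay above 0 with a median of 0.03, the same as the median of 0.03 over all genes, so the tilt of the set depends on the scaling. Crb3, Tjp1 and Vcl were higher in knockout without overlap, 9.09% of the members against 2.2% of all genes, and no member was lower without overlap, against 5.97% of all genes. On second probes the groups of Crb3 and Vcl did overlap. That of Crb3 stood at 0.61, 1.34 and 1.27 in knockout organoids, against 1.10, 0.82 and 0.74 in wild type. That of Vcl stood at -1.39, -1.66 and -1.81, against -1.54, -1.66 and -1.94.

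In vehicle Crb3 stood at 1.47, 1.82 and 2.24 in knockout organoids, against 1.40, 1.42 and 1.37 in wild-type organoids. The knockout values were spread widely and the wild-type values were nearly level, with a difference of 0.45 ± 0.18 (SE, limma adjusted p = 0.559). Without knockout mouse 3 it was 0.25. Tjp1, whose product ZO-1 scaffolds the tight junction, stood at 3.75, 3.72 and 3.73 in knockout organoids, against 3.49, 3.55 and 3.51 in wild-type organoids. Its knockout vehicle arrays were tightly grouped above the wild-type ones, with a difference of 0.22 ± 0.10 (adjusted p = 0.559) that was 0.17 after quantile normalization. With calcitriol Tjp1 stood at 3.44, 3.62 and 3.62 in knockout organoids, against 3.56, 3.57 and 3.59 in wild-type organoids, and the difference was -0.01.

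Vcl in vehicle stood at 2.28, 2.40 and 2.38 in knockout organoids, against 2.24, 2.00 and 1.91 in wild-type organoids, a difference of 0.31 ± 0.15 (limma adjusted p = 0.580). Epcam and Ocln were 0.32 and 0.31 higher in knockout vehicle organoids with overlapping groups, and neither passed. On the lower side the smallest p belonged to Pkp3 (-0.19 ± 0.16) and Itgb4 (-0.13 ± 0.13). Itgb4 stood at 5.05, 5.26 and 4.85 in knockout organoids, against 5.14, 5.28 and 5.12 in wild-type organoids, so its groups overlapped.

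With calcitriol, knockout minus wild type was above 0 for 27 of 33 members, with a median of 0.09 beside 0.01 over all genes, of which 52.5% lay above 0. None was called by limma, while 0.206% of genes were called with the group means and 0.528% with the replicate block. Unadjusted limma p was under 0.05 for 0 members, against 2.99% of all genes. With the block it was under 0.05 for 4 members, or 12.1%, against 8.24% of all genes. After quantile normalization 26 of 33 lay above 0, and on the largest slide, with 2 knockout and 3 wild-type arrays, 22 of 33. One member, Ctnna1, was higher in knockout without overlap, or 3.03% of the members against 3.66% of all genes, and none was lower without overlap, against 3.73% of all genes. These differences and those in wild type share the wild-type calcitriol arrays.

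Ctnna1 with calcitriol stood at 6.68, 6.69 and 6.86 in knockout organoids, against 6.41, 6.65 and 6.62 in wild-type organoids, a difference of 0.19 ± 0.10 (SE, limma adjusted p = 1.00). Itga2, encoding the alpha chain of a collagen-binding integrin, stood at -0.66, 0.06 and -0.44 in knockout organoids, against -1.24, -0.41 and -0.73 in wild-type organoids. Itga2 was higher in knockout at each replicate number, by 0.44 ± 0.29 on average, but its groups overlapped because replicate 2 was high in both genotypes. For Cldn15 knockout minus wild type was -0.42 ± 0.27 with calcitriol and 0.40 ± 0.27 with vehicle, and neither difference passed (adjusted p = 1.00 and 0.691). F11r had the next smallest p below 0, at -0.11 ± 0.11.

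**Figure D3:**
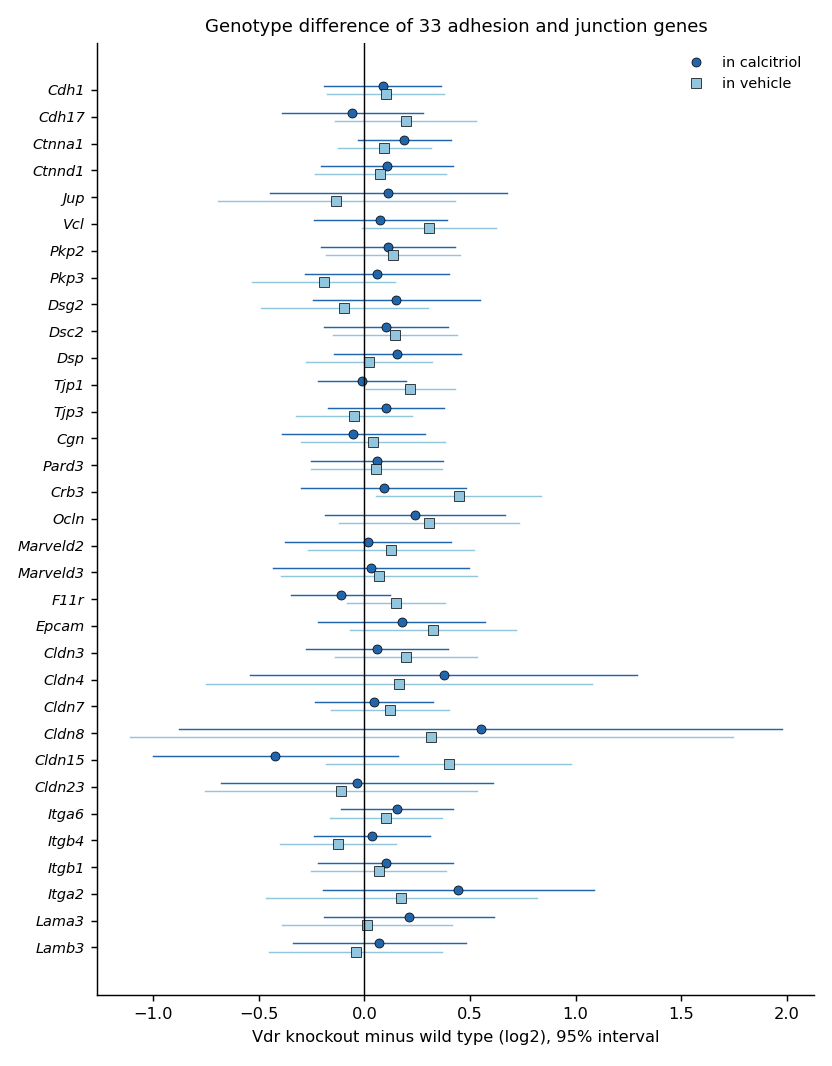
Vdr knockout minus wild type (log2 difference of group means, x axis, with 95% intervals) for the 33 tested members, with calcitriol as circles and vehicle as squares. Most points lie slightly right of 0, 27 of 33 with calcitriol and 26 of 33 with vehicle, and Cldn15 has opposite signs in the 2 treatments.

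Several members differed between the replicate numbers, each of which stands for 1 mouse per genotype and 4 arrays. The largest of the 3 gaps between the means of these numbers was at least 0.5 for 7 of 33 members, beside 36.8% of all genes, and the wild-type calcitriol difference was that large in either direction for 1 member, beside 17.8% of all genes. The gap exceeded the calcitriol difference for 27 of 33 members and for 74.8% of all genes, which is a description only, since the largest of 3 gaps is set beside a single difference. Cldn4 stood at 3.24 to 3.37 on the 4 arrays of replicate 2, against 1.94 to 2.69 on the other 8 arrays. Cldn8 stood at 0.44 to 1.10 on the 4 arrays of replicate 1, against -1.29 to 0.08 on the other 8. Replicate 1 is the only one from males, so sex and animal cannot be told apart there. Within a mouse the calcitriol and vehicle arrays of Cldn4 differed by at most 0.26.

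On the 4 arrays of replicate 2, from the mice of 3 months, 7 of 33 members stood above all 8 other arrays, against 2.27% of all genes: Cldn4, Cldn23, Cgn, Itga6, Itgb4, Marveld2 and Pkp3. Marveld3 and Pkp2 stood below all 8 others, 2 of 33 members against 3.64% of all genes. Cldn23 was at 0.13 to 0.24 on the replicate 2 arrays and at -0.63 to -0.32 on the rest, with a similar separation in both genotypes. Cgn was at 4.79 to 4.83 on the replicate 2 arrays and at 4.40 to 4.60 on the rest. Replicate 2 is 1 mouse per genotype and is also the only one of 3 months. Age and animal therefore cannot be told apart, nor can anything else that its 4 arrays share. No test was made of a grouping of this kind.

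**Figure D4:**
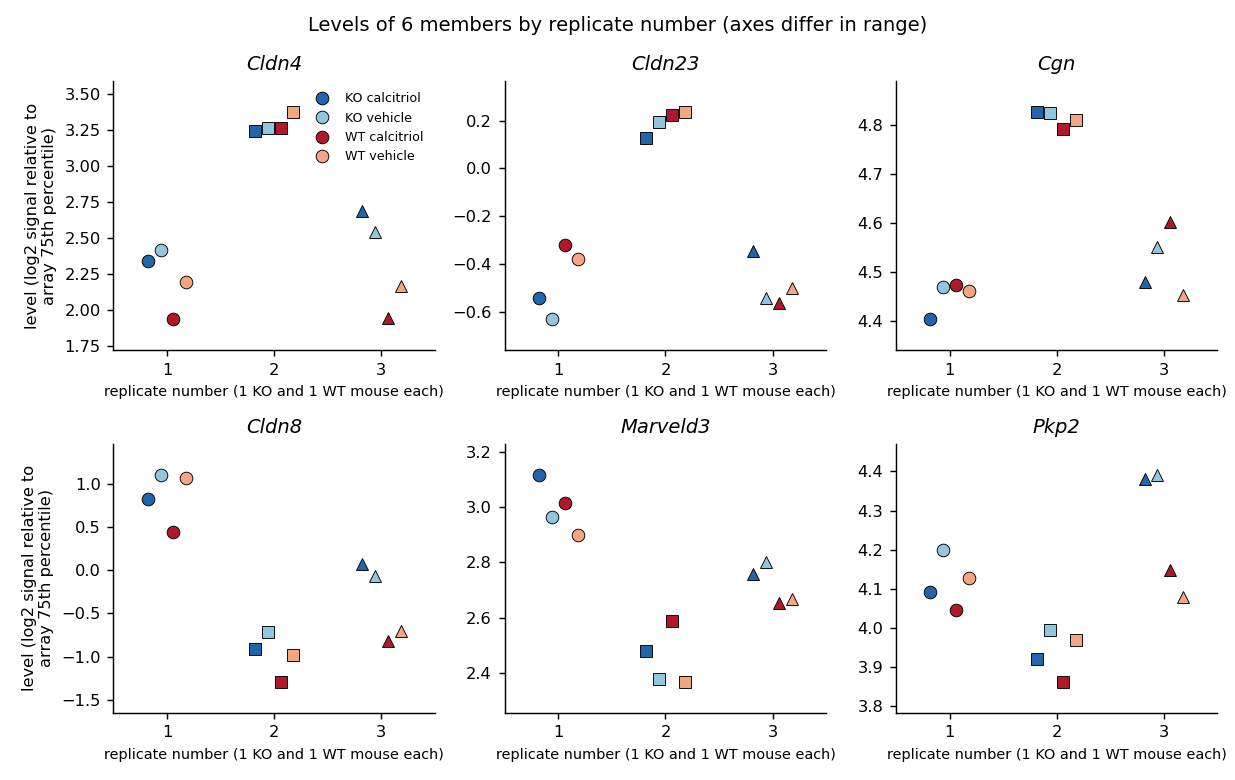
Levels of Cldn4, Cldn23, Cgn, Cldn8, Marveld3 and Pkp2 (log2 processed signal relative to the 75th percentile of the array, axes of different range) by replicate number, 1 point per array with the colour giving genotype and treatment. The 4 arrays of replicate 2 lie together, above all others for Cldn4, Cldn23 and Cgn and below all others for Marveld3 and Pkp2, while Cldn8 is highest in replicate 1.

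Related genes outside the set gave few calls. Of 29 other adherens junction and desmosome genes 23 could be tested and none was called in any comparison, with a wild-type median of -0.05 and the nectin gene Nectin1 lowest at -0.49 (limma adjusted p = 1.00, and 0.184 with the block). Perp and Pkp1, a desmosomal membrane gene and a plakophilin gene, differed by -0.15 and -0.18. Of 38 other integrin, laminin and focal adhesion genes 29 could be tested and none was called, with a wild-type median of -0.11 and differences of -0.23 for the kindlin gene Fermt1, -0.34 for the talin gene Tln2 and -0.23 for the dystroglycan gene Dag1. In knockout Fermt1, Tln2 and Dag1 differed by 0.02, -0.30 and -0.17.

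Of 46 other tight junction and polarity genes 36 could be tested, and 1 was called, lower in wild-type organoids, with the mouse as a block. This was Cldn14, a barrier claudin gene known from the inner ear and kidney, at -1.78, -1.91 and -2.45 with calcitriol, against -0.04, -0.90 and -1.57 with vehicle. It was lower in each mouse without overlap and fell by 1.21 on the log2 scale, with a limma adjusted p of 0.0311 with the block and 1.00 without. The blocked call was lost without any one of the wild-type mice (adjusted p = 0.146, 0.170 and 0.0754) and without knockout mouse 1 (0.0596) or 2 (0.0915). In mouse 3, whose arrays share a slide, the difference was -0.88. The myosin light chain kinase gene Mylk differed by -0.79 (adjusted p = 0.666, and 0.145 with the block). Cldn10 and Cldn19 were above background on 9 and 6 of the 12 arrays, and neither passed.

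Among 22 genes of epithelial and mesenchymal state 15 could be tested. S100a4, which encodes a calcium-binding protein used as a mesenchymal marker, was the one called, with the mouse as a block: it stood at -0.07, 1.40 and 1.24 with calcitriol, against 0.32, 2.14 and 1.79 with vehicle, in wild-type organoids. It fell by 0.56 on the log2 scale (limma adjusted p = 0.0449 with the block, and 1.00 without), and the blocked call was lost without any one of the 3 wild-type mice (adjusted p = 0.128, 0.297 and 0.185) and without knockout mouse 1 (0.0758) or 2 (0.113). Fn1, Klf4 and Tgfbi, encoding fibronectin, an epithelial transcription factor and a matrix protein, differed by -0.30, -0.26 and -0.67 and did not pass. In knockout these 3 differed by -0.29, -0.01 and 0.03. S100a4 differed by -0.16 in knockout, and its difference of effects did not pass (limma adjusted p = 0.554 with the block).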

How the data were processed

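RNA of 12 organoid cultures was hybridised to 1-colour Agilent arrays after labelling 100 ng. Per the file headers, the deposited files hold linear spot intensity from Agilent Feature Extraction 11.5.1.1, with processed intensity already background-subtracted and not normalized between arrays. The probe annotation is on mm9, per the file headers, and the submitters' processing notes name no statistical method.

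Control and outlier spots were dropped, log2 processed intensity minus each array's 75th percentile was taken, and spots of a probe were averaged. Of 55681 probes, 28026 received a symbol by matching accessions to a RefSeq table (GRCm38.p6). Probes were kept where some group had them well above background on its 3 arrays (33410 probes, 24245 genes), and the probe with the highest mean stood for its gene. The 4 group means were fitted on all 12 arrays with limma 3.58.1 in R 4.3.3 (variance trend, 2-sided, Benjamini-Hochberg threshold 0.05). This fit takes a mouse's 2 arrays as independent. The number of arrays limits the precision. Intervals are at 95%.

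Per the labels, arrays of one genotype and replicate number come from one mouse. Deviations from group means of a mouse's 2 arrays correlated at 0.57, 0.32 and 0.32 in wild type and 0.25, 0.59 and 0.10 in knockout, so a second fit had the mouse as a block. Between genotypes the number marks different mice of one sex and age (0.41, 0.40 and 0.34 with calcitriol, 0.64, 0.13 and 0.40 with vehicle) and was the block there. The normexp alternative (offset 50) used the deposited median intensity, in place of the planned mean intensity, and the local background. The fit was tested on simulated data.

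The members and lists were chosen with earlier results of these data known. Values of every array are given for Cdh1, for called members, and for the 2 members above 0 and 2 below 0 with the smallest p in each comparison. Of the other lists, called genes and up to 3 with the smallest p in wild type are named. Alternatives covered background correction, scaling, filter, probe choice, slide, arrays in the fit and left-out arrays or mice. Sets of genes were described by counts and medians, with no set test.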

Additional observations from a re-analysis of the deposited data

Results flagged for a closer look

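Tjp1 and Tjp3, the genes of the scaffolds ZO-1 and ZO-3, stood out because their calcitriol minus vehicle differences had one sign in all 3 knockout mice and the opposite sign in all 3 wild-type mice. For Tjp1 the differences within the mice were -0.31, -0.10 and -0.11 in knockout and 0.07, 0.02 and 0.08 in wild type, and the wild-type effect minus the knockout effect was 0.23 ± 0.14 (SE). For Tjp3 they were 0.04, 0.26 and 0.08 in knockout and -0.02, -0.00 and -0.06 in wild type, with a difference of the effects of -0.15 ± 0.18. Neither difference passed the limma test over all genes, with adjusted p of 1.00 for both in the fit of the group means, and 0.629 for Tjp1 and 0.734 for Tjp3 with the mouse as a block. Such opposite signs were found in 2 of 33 members (6.06%) and in 943 of 24245 genes (3.89%). Of all the mice, only wild-type mouse 3 had both of its arrays on one slide. With 3 arrays a group, no single array could be tested as an outlier.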

How the results depend on the processing

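Array number, slide overlap and the choice of 1 probe a gene limit these results. No member was called in any comparison under any alternative except in wild type with the mouse as a replicate block. There the count was 1 (Cldn15) and, leaving out 1 mouse in turn, 0 to 1, and the block changed no other member's call. Single arrays were left out only of the fit of the group means, where no member was called with all arrays either. Scaling to the median moved the median of all genes by itself, to 0.44 in wild type, -0.25 in knockout, 0.69 for the difference of effects and 0.70 for knockout against wild type in vehicle, and the members' medians with it, to 0.44, -0.35, 0.76 and 0.86. Cdh1 in wild type was then 0.41, below that shift. The members' median in wild type was 0.0447 with slide blocked and 0.0343 within the largest slide, and 0.11 in both for the difference of effects; on the largest slide each vehicle group is 1 array, so calcitriol is there set against a single mouse. Leaving out 1 array or mouse in turn, Cdh1 ranged from -0.14 to 0.0085 in wild type, -0.18 to 0.0077 in knockout and -0.0660 to 0.13 for the difference, and its sign turned without calcitriol array 1 in wild type, without vehicle array 2 in knockout, and in 7 of 27 settings for the difference.

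The 39 genes called in wild type became 234 with the replicate block, 70 with scaling to the median, 20 in a fit of 6 arrays, 6 with slide as a block, 3 within the largest slide and 13 to 37 without 1 array. The 7 genes called for the difference of effects became 58 with the block, 21 with scaling to the median, 12 after quantile normalization, 11 after normexp, 4 with probes above background on all arrays, 1 with slide blocked and 2 within the largest slide. The 50 called for knockout against wild type in calcitriol became 128 with the block, 16 within the largest slide and 25 to 56 without 1 array; the 1 called in vehicle became 2 with scaling to the median and 0 with slide blocked, within the largest slide, in a fit of 6 arrays and with probes above background on all arrays. With no count table, depth has no counterpart beyond signal over background, which Cldn1 lacked.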

Other observations

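The 5 genes whose levels followed Cdh1 most closely over the 12 arrays, after subtracting the group means and among 19893 genes above background on all arrays, were Il1rn (r = 0.97), Mospd1 (0.96), Zfp697 (0.95), Rb1cc1 (0.95) and the claudin gene Cldn3 (0.95). The other members ranged from -0.86 for Cldn8 and Marveld3 to 0.83 for Marveld2, with 0.80 for Cldn4 and Cgn and 0.81 for Itga2. These are descriptions over arrays that share mice, since the 4 arrays of a replicate number tend to lie together, and they say nothing of shared function.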
